A study of Homo sapiens with 9 samples.

Results

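The Wnt ligand, frizzled receptor and secreted antagonist genes were described in MCF10A cells, a non-tumorigenic human mammary epithelial line that is immortalised but not transformed. Members were all genes whose symbol is WNT, FZD, SFRP or DKK followed by its number, which gave 37 of the 41857 genes in each file: 19 WNT, 10 FZD, 4 SFRP and 4 DKK genes. The series holds 9 poly(A) RNA-seq libraries in 3 groups of 3 biological replicates: cells with the empty vector, cells expressing human deltaNp63alpha and cells expressing human deltaNp63beta. All 9 cultures, vector included, had received 500 ng/mL doxycycline for 24 h, in medium with horse serum, epidermal growth factor, hydrocortisone, cholera toxin and insulin. The genotype of every library is labelled WT, and whether each line is a clone or a pool is not given in the sources used here. The comparisons ask which genes each deltaNp63 isoform regulates, and how the isoforms differ.

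Wnt proteins are lipid-modified secreted ligands that bind frizzled receptors, and with the co-receptors LRP5 or LRP6 they stabilise beta-catenin, which then acts with TCF/LEF factors in the nucleus. Other Wnt and frizzled pairs act without beta-catenin, through planar cell polarity and calcium signals, and WNT5A is the usual example. Secreted frizzled-related proteins (SFRPs) bind Wnts outside the cell, whereas DKK1 binds LRP5 and LRP6 and keeps them from the ligand. p63 is a transcription factor of the p53 family needed for stratified and mammary epithelium, and the deltaNp63 forms lack the N-terminal transactivation domain. The alpha and beta forms have different C-termini.

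The upstream sequences of 4 genes are shown because, among genes of their class called between the isoforms, they differed most there (DKK1 among antagonists, WNT9A among ligands) or moved in opposite directions with deltaNp63beta (the receptors FZD4 and FZD8). Each is the 250 bases before the RefSeq start on GRCh38.p14, read 5′ to 3′ on the gene's strand, with no base in an exon of the gene in GENCODE 29. The windows lie at chr10:52314031-52314280 (plus strand) for DKK1, chr1:227947933-227948182 (minus) for WNT9A, chr11:86955396-86955645 (minus) for FZD4 and chr10:35642297-35642546 (minus) for FZD8. Capitals mark CATG, a core found in many p53-family sites, CTTTGA or its reverse complement TCAAAG, the core that TCF/LEF factors recognise, and TATAAA or TTTATA, the TATA box.
DKK1: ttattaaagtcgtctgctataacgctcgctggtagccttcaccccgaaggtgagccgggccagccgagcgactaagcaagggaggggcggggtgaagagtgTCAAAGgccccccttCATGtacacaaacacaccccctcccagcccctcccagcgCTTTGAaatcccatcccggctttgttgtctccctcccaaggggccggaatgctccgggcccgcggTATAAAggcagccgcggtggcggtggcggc
WNT9A: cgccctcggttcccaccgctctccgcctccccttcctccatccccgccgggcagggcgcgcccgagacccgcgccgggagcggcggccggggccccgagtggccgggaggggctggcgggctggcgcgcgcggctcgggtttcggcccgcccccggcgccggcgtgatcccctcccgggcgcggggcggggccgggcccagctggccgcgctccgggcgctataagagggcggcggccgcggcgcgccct
FZD4: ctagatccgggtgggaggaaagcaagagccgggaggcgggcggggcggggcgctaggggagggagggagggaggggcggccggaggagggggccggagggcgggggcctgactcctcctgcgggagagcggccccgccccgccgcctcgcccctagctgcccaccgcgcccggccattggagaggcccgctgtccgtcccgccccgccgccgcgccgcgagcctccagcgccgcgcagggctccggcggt
FZD8: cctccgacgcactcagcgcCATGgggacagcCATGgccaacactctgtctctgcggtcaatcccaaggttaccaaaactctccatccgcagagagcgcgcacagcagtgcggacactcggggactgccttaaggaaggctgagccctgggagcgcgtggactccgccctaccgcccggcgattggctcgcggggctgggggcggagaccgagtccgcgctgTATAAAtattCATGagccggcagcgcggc

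The DKK1 window held 1 CATG, 2 CTTTGA cores (1 on each strand) and 1 TATAAA-type match, and 62.8% of its bases were G or C. FZD8 had 3 CATG and 1 TATAAA-type match at 65.2% GC. WNT9A and FZD4 had none of these motifs, at 84.4% and 80.8% GC, against a median of 58.0% over all promoter windows. Among 35116 windows of the same length, 47.6% held CATG, 11.2% held CTTTGA on either strand and 10.7% held TATAAA on either strand. RefSeq promoters matched 25 of the 37 members, and 8 of the 14 that passed the test in any comparison. A match is a run of letters and says nothing of binding.

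Values are the deposited normalized estimated counts, and the column sums were 22.5 M to 23.2 M per library. TP63 checked the labels of vector against isoform libraries: it was 259 to 332 in the vector libraries, 4426 to 6983 with deltaNp63alpha and 4183 to 6719 with deltaNp63beta. The isoforms overlapped (-0.22, adjusted p = 0.4789), so it does not check which is which. All 10 mammary epithelial markers were detected, and their summed level was 149762 to 155460 in vector, 204329 to 210301 in deltaNp63alpha and 272517 to 277377 in deltaNp63beta. TP63 is itself on this list, and KRT5 had means of 55464, 92598 and 146977 in the same order. At adjusted p under 0.05, 7 were higher and 1 lower with deltaNp63alpha than with vector, and 8 and 1 with deltaNp63beta. The mean of KRT8 was 5290 in vector and 4292 with deltaNp63alpha, and that of KRT7 was 67971 in vector and 61992 with deltaNp63beta. Of 9 fibroblast markers 6 passed the filter on low values, with sums of 10606 to 10949 in vector, 7788 to 7918 with deltaNp63alpha and 12516 to 13579 with deltaNp63beta. FBLN1 made up most of these sums (means 9233, 7224 and 12426), while DCN was 1211, 350 and 166, so with deltaNp63beta the former was higher than in vector (0.43, adjusted p = 6.895e-06) and the latter lower (-2.87, adjusted p = 8.397e-09). Leukocyte markers (5 of 8 past the filter) summed to 1871 to 2087, 1281 to 1642 and 1242 to 1369, with CD3E at 0 in all deltaNp63beta libraries, CD14 and LAPTM5 higher than in vector there (2.77 and 0.96, adjusted p = 2.767e-04 and 6.042e-04) and ITGB2 and CD68 lower (-1.87 and -0.86, adjusted p = 2.415e-07 and 1.542e-05). Endothelial markers (3 of 6 past it) summed to 204 to 276, 171 to 174 and 110 to 143, with CDH5 at 0 in all deltaNp63beta libraries. The part of these shifts in the Wnt results was not tested, and in bulk RNA fewer cells of a type and less RNA per cell cannot be told apart.

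Both isoforms came with lower DKK1 and WNT5A and higher WNT7A and WNT10B RNA than vector. WNT9A was higher than vector with deltaNp63alpha and lower with deltaNp63beta. With deltaNp63beta, the receptor FZD4 was higher, FZD8 lower and the antagonist SFRP1 higher than with vector or deltaNp63alpha. A gene was tested where it reached a value of 10 in at least 3 libraries, which 21 members did (9 WNT, 8 FZD, SFRP1 and DKK1 to DKK3) among 15108 genes. Changes below are differences in log2(value + 1) with their standard error, and calls are limma tests at a Benjamini-Hochberg adjusted p under 0.05 over all 15108 genes.

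In deltaNp63alpha against vector, 4 tested members were higher (WNT7A, WNT9A, WNT10B and FZD6) and 3 lower (WNT5A, FZD2 and DKK1), which is 33.3% of the 21. Over all genes tested, 14.5% were called in that comparison, 8.13% higher and 6.37% lower. In deltaNp63beta against vector, 6 were higher (WNT3A, WNT7A, WNT10B, FZD4, FZD6 and SFRP1) and 6 lower (WNT5A, WNT9A, WNT16, FZD2, FZD8 and DKK1), or 57.1%, beside 41.3% of all genes (21.8% higher and 19.5% lower). The 57.1% includes WNT3A, which passed the filter only through isoform libraries, mostly deltaNp63beta, so that its call carries no weight. Against deltaNp63alpha, deltaNp63beta had 4 members higher (FZD3, FZD4, FZD6 and SFRP1) and 4 lower (WNT7B, WNT9A, FZD8 and DKK1), or 38.1%, close to the 32.9% of all genes (17.4% higher and 15.5% lower). Median changes of the 21 members were 0.11, 0.06 and -0.06 in the 3 comparisons, and those of all genes were -0.01, -0.00 and -0.00. Values of the groups did not overlap for 9, 13 and 12 of the 21, beside 33.5%, 50.6% and 44.8% of all genes. The comparisons with vector share the 3 vector libraries, so their values are given side by side and are not independent. Against a 1.5-fold change as the null, DKK1 passed in all 3 comparisons, WNT5A in deltaNp63beta against vector and WNT9A between the isoforms, and no other member passed. The 4 higher with deltaNp63alpha became 2 without vector replicate 1 and 1 without deltaNp63alpha replicate 1 or replicate 3.

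**Figure D1:**
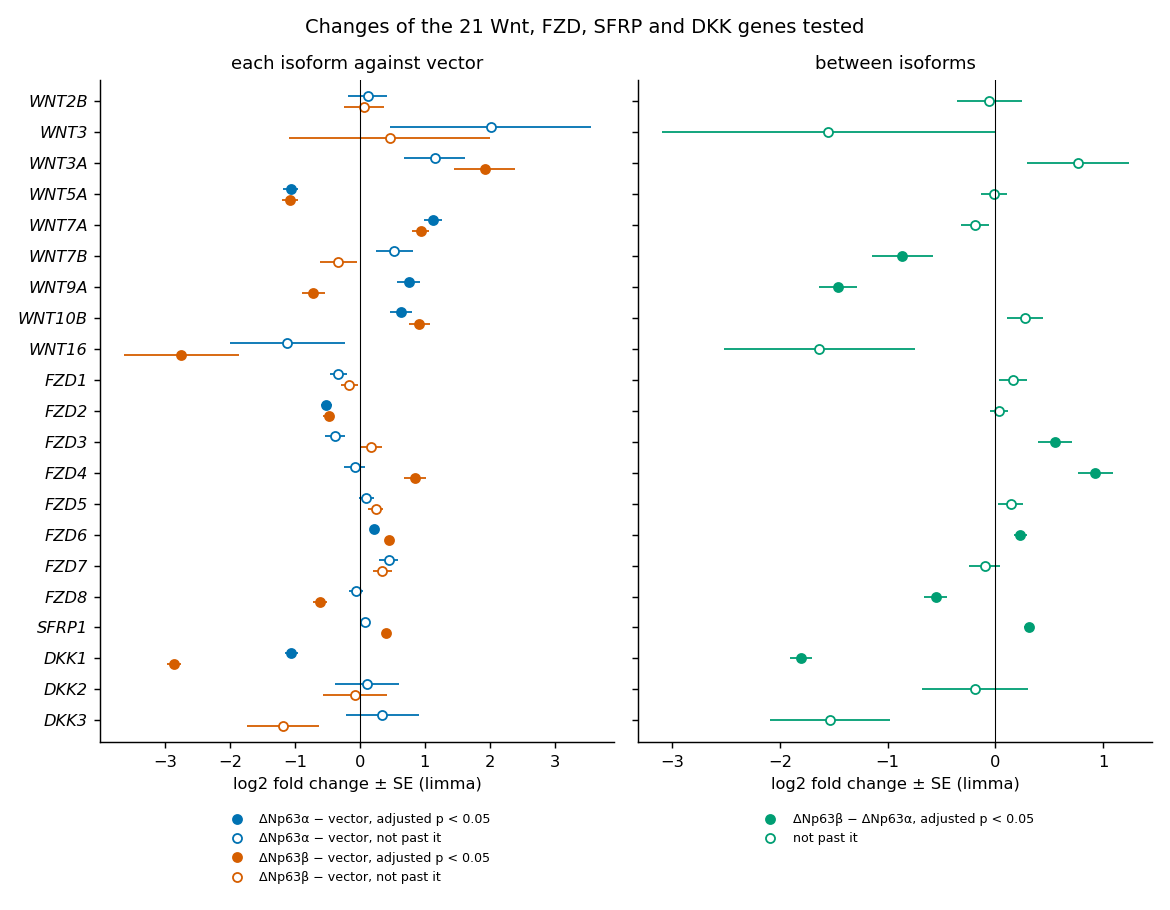
Log2 fold change ± SE from limma (horizontal axis) of each of the 21 members tested (vertical axis), for each isoform against vector on the left and for deltaNp63beta against deltaNp63alpha on the right. Filled points passed an adjusted p of 0.05 and open points did not, and DKK1 sits at -1.05 and -2.86 on the left and at -1.81 on the right.

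WNT5A, the non-canonical ligand (chr3:55465715-55490539, minus strand), was the most abundant Wnt RNA per kb of exon in vector cells. It read 729, 784.7 and 855 in the vector libraries, 349, 348 and 440 with deltaNp63alpha and 343, 423 and 360 with deltaNp63beta. Every vector library lay above all 6 isoform libraries, and the isoforms overlapped each other. The change was -1.06 ± 0.12 with deltaNp63alpha (adjusted p = 1.034e-04) and -1.07 ± 0.12 with deltaNp63beta (adjusted p = 2.761e-05). Between the isoforms it was -0.01, with a 95% interval of -0.27 to 0.25.

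WNT7A (chr3:13816258-13880121, minus strand), a ligand of the female reproductive tract and skin, read 113, 97.7 and 89.5 in vector, 237, 219 and 201 with deltaNp63alpha and 192, 198 and 185 with deltaNp63beta. All isoform libraries were above all vector libraries. It rose by 1.13 ± 0.13 (adjusted p = 1.541e-04) and by 0.94 ± 0.13 (adjusted p = 1.794e-04), and the isoforms differed by -0.19 (95% interval -0.48 to 0.10, not called). WNT10B (chr12:48965340-48971763, minus strand), a ligand of the beta-catenin pathway in mammary gland, read 107, 88.5 and 107 in vector, 175, 132 and 168 with deltaNp63alpha and 218, 195 and 162 with deltaNp63beta. Here too each isoform group lay above vector, while the isoforms overlapped each other. WNT10B rose by 0.92 ± 0.17 with deltaNp63beta (adjusted p = 0.001056). Its rise of 0.64 ± 0.17 with deltaNp63alpha (adjusted p = 0.02524) was no longer called without vector replicate 2, deltaNp63alpha replicate 1 or deltaNp63alpha replicate 3, where the adjusted p was 0.0895, 0.0891 and 0.0880.

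WNT9A (chr1:227918656-227947898, minus strand), a ligand known from joint and skeletal development, separated the isoforms. It read 85.7, 94.3 and 101 in vector, 173, 135 and 167 with deltaNp63alpha and 49.1, 55.3 and 66.7 with deltaNp63beta. The 3 groups did not overlap, with deltaNp63alpha highest and deltaNp63beta lowest. deltaNp63beta was 2.76-fold below deltaNp63alpha, a change of -1.46 ± 0.18 (adjusted p = 9.68e-05), and 0.71 below vector on the log2 scale (-0.71 ± 0.18, adjusted p = 0.007226). The rise of 0.75 ± 0.18 with deltaNp63alpha over vector (adjusted p = 0.01527) lost its call without vector replicate 1, deltaNp63alpha replicate 1 or deltaNp63alpha replicate 3, at adjusted p values of 0.0551, 0.0613 and 0.0630. The nearest Wnt gene to WNT9A is WNT3A, 59.2 kb away on the same chromosome.

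WNT3A (chr1:228007051-228061260, plus strand), the prototype ligand of the beta-catenin pathway, was low in all groups: 3.69, 5.54 and 2.08 in vector, 8.90, 10.4 and 8.17 with deltaNp63alpha and 16.7, 15.4 and 16.7 with deltaNp63beta. It passed the filter through the 3 deltaNp63beta libraries and 1 deltaNp63alpha library, and a gene that passes through the group where it is high had to differ. It was 1.92 ± 0.47 above vector with deltaNp63beta (adjusted p = 0.007037), or 1.30 with a pseudocount of 5. The change with deltaNp63alpha was 1.15 ± 0.47 (adjusted p = 0.1392). WNT16, a ligand known from bone and skin, read 13.4, 29.5 and 40.3 in vector, 12.0, 15.3 and 7.44 with deltaNp63alpha and 16.7, 0.00 and 2.38 with deltaNp63beta. Vector and deltaNp63beta overlapped, through deltaNp63beta replicate 1 and vector replicate 1. Its change of -2.75 ± 0.88 with deltaNp63beta (adjusted p = 0.02766) was not called without vector replicate 2, vector replicate 3, deltaNp63beta replicate 2 or deltaNp63beta replicate 3 (adjusted p 0.0761, 0.0951, 0.0893 and 0.0662). Nor was it called with only those groups in the fit (0.0520) or without the mean-variance trend (0.0635). The value was -3.84 without deltaNp63beta replicate 1 and -1.76 without deltaNp63beta replicate 2, and it moved from -3.97 to -1.72 between pseudocounts of 0.1 and 5.

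WNT7B, a ligand of ductal and lung epithelium, read 48.4, 33.2 and 62.4 in vector, 89.4, 57.5 and 59.8 with deltaNp63alpha and 37.1, 43.3 and 30.7 with deltaNp63beta. The isoform groups did not overlap, and vector overlapped both. Between the isoforms it was -0.86 ± 0.29 (adjusted p = 0.03829). That call was lost without any 1 of the 3 deltaNp63alpha libraries (adjusted p 0.140, 0.0514 and 0.0611), without deltaNp63beta replicate 1 (0.0724) or replicate 3 (0.112), after quantile normalization (0.0551) and with no filter on low values (0.0546). WNT2B was 25.4 to 52.6 in vector, 35.5 to 57.0 with deltaNp63alpha and 41.5 to 43.7 with deltaNp63beta, and passed no test. Part of its exon sequence is opposite to exons of ST7L. WNT3 was at 0 in 5 libraries and reached 26.5 in deltaNp63alpha replicate 2, so its group values overlapped and no test was passed.

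**Figure D2:**
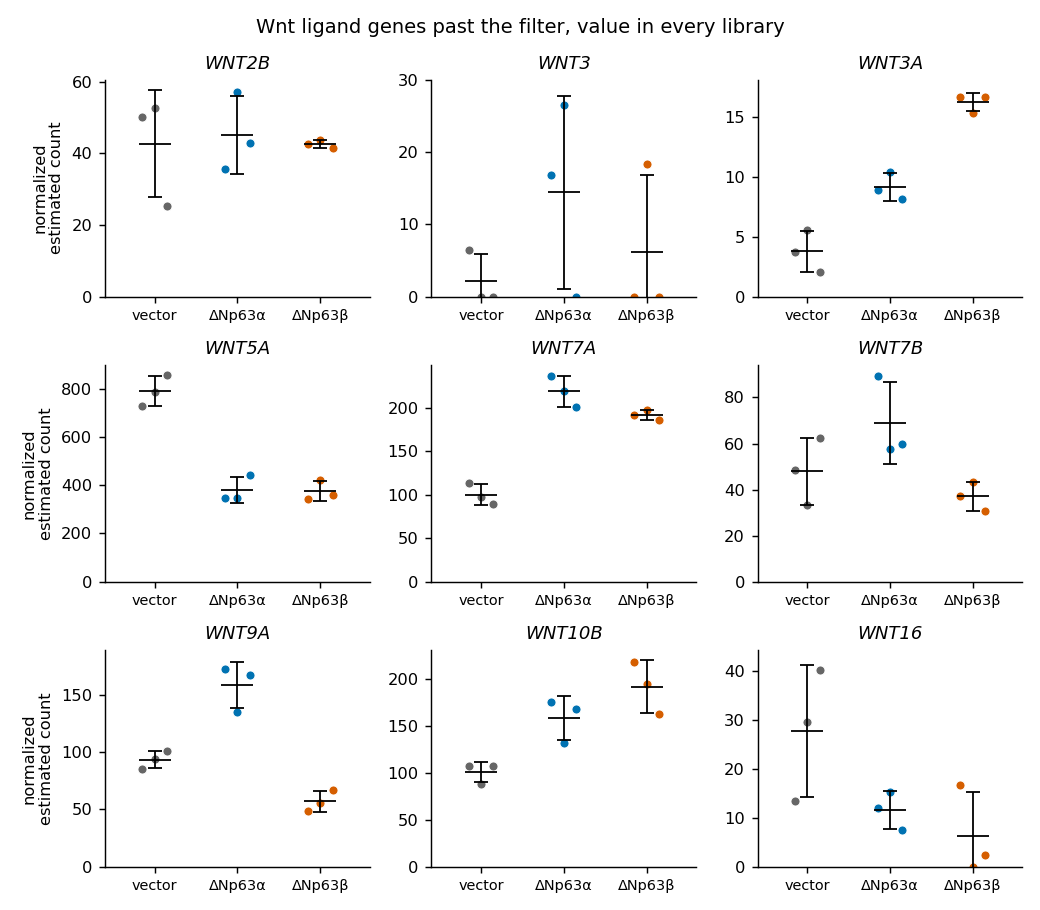
Normalized estimated counts (vertical axes, each from 0) of the 9 Wnt ligand genes tested, with a point per library, a long line at the mean and whiskers of 1 SD, cut at 0. WNT5A is 729 or more in all vector and 440 or less in all isoform libraries, and WNT9A has deltaNp63alpha on top and deltaNp63beta at the bottom.

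Called changes of the receptor genes ran from -0.62 to 0.93. FZD6, a receptor of planar cell polarity in skin and hair, was the most abundant frizzled per kb of exon, at 3202, 3375 and 3231 in vector, 3968, 3584 and 3836 with deltaNp63alpha and 4713, 4126 and 4554 with deltaNp63beta. The 3 groups did not overlap and lay in that order. Part of its exon sequence is opposite to BAALC-AS1, not analysed here. FZD6 rose by 0.45 ± 0.06 with deltaNp63beta over vector (adjusted p = 8.967e-05) and by 0.23 ± 0.06 over deltaNp63alpha (adjusted p = 0.00933). Its rise of 0.21 ± 0.06 with deltaNp63alpha over vector (adjusted p = 0.02854) was lost without vector replicate 1 (0.0884), vector replicate 3 (0.0866), deltaNp63alpha replicate 1 (0.0976) or deltaNp63alpha replicate 3 (0.0882), and without the mean-variance trend (0.0965). FZD2 (chr17:44557459-44559570, plus strand), a receptor for WNT5A, read 858, 752 and 774 in vector, 592, 541 and 535 with deltaNp63alpha and 523, 572 and 615 with deltaNp63beta. All vector libraries were above all isoform libraries. FZD2 fell by 0.51 on the log2 scale (-0.51 ± 0.09, adjusted p = 0.002052) and by 0.48 (-0.48 ± 0.09, adjusted p = 9.874e-04), and between the isoforms the 95% interval was -0.16 to 0.22.

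FZD4 (chr11:86945679-86955391, minus strand), the receptor for norrin as well as Wnts, read 113, 96.5 and 87.3 in vector, 105, 87.0 and 88.8 with deltaNp63alpha and 198, 154 and 186 with deltaNp63beta. Only the deltaNp63beta libraries stood apart, above the other 6. FZD4 rose by 0.85 ± 0.16 over vector (adjusted p = 0.001625) and by 0.93 ± 0.16 over deltaNp63alpha (adjusted p = 0.001304). Its exons lie partly opposite those of PRSS23, a serine protease gene, which read 477, 481 and 512 in vector, 220, 213 and 305 with deltaNp63alpha and 165, 115 and 117 with deltaNp63beta. PRSS23 was therefore lowest where FZD4 was highest, and whether the counting used strand is not given in the sources used here. FZD8 (chr10:35638249-35642278, minus strand), a receptor that pairs with LRP6 in the beta-catenin pathway, read 665, 617 and 672 in vector, 648, 635 and 585 with deltaNp63alpha and 362, 424 and 494 with deltaNp63beta. The deltaNp63beta libraries lay below the other 6, which overlapped. FZD8 changed by -0.62 ± 0.11 against vector (adjusted p = 7.761e-04) and by -0.55 ± 0.11 against deltaNp63alpha (adjusted p = 0.0023).

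FZD3, a planar cell polarity receptor, read 376, 430 and 506 in vector, 313, 305 and 389 with deltaNp63alpha and 467, 418 and 606 with deltaNp63beta. The isoforms did not overlap each other, and vector overlapped both. The difference of 0.56 ± 0.16 between the isoforms (adjusted p = 0.01813) was lost without deltaNp63alpha replicate 1 (0.0595), deltaNp63alpha replicate 2 (0.0663) or deltaNp63beta replicate 3 (0.0665). FZD1, FZD5 and FZD7, which can all signal to beta-catenin, passed no test. FZD7 was 138 to 151 in vector, 179 to 212 with deltaNp63alpha and 160 to 225 with deltaNp63beta, with both isoforms above vector in every library. Its changes were 0.44 ± 0.15 (adjusted p = 0.07018) and 0.34 ± 0.15 (adjusted p = 0.08433); the first passed without deltaNp63beta replicate 3 (0.0408) and the second without deltaNp63beta replicate 1 (0.0443). FZD1 was 227 to 267 in vector, 176 to 231 with deltaNp63alpha and 213 to 233 with deltaNp63beta. Its change of -0.33 with deltaNp63alpha (adjusted p = 0.1236) passed without deltaNp63alpha replicate 1 (0.0466). FZD5 was 179 to 219, 215 to 218 and 225 to 253 in the same order.

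**Figure D3:**
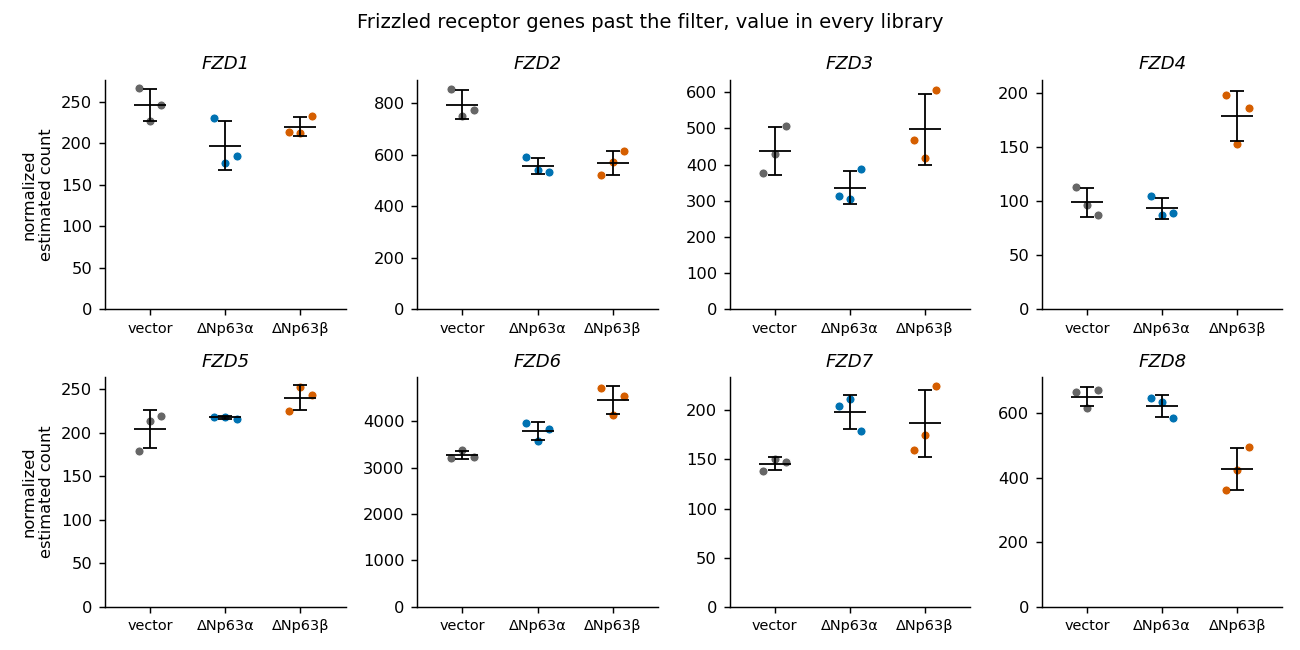
Normalized estimated counts (vertical axes, each from 0) of the 8 frizzled genes tested, with a point per library, a long line at the mean and whiskers of 1 SD. FZD6 and FZD4 have their highest libraries with deltaNp63beta and FZD8 its lowest, and FZD2 is lower with both isoforms than with vector.

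DKK1 (chr10:52314296-52318042, plus strand) passed the test in all 3 comparisons. It read 6041, 5480 and 5437 in vector, 3089, 2600 and 2505 with deltaNp63alpha and 771, 893 and 683 with deltaNp63beta. The groups were widely apart, vector highest and deltaNp63beta lowest. Group means were 5653 ± 337, 2731 ± 313 and 782 ± 105 (SD, n = 3 each). DKK1 was 2.08-fold lower with deltaNp63alpha than with vector (-1.05 ± 0.10, adjusted p = 3.197e-05) and 7.26-fold lower with deltaNp63beta (-2.86 ± 0.10, adjusted p = 3.466e-09). Between the isoforms the fall was 3.50-fold (-1.81 ± 0.10, adjusted p = 2.542e-07). Against a 1.5-fold null the adjusted p values were 0.03068, 2.31e-08 and 1.15e-05. An exon of PRKG1-AS1 lies opposite DKK1 exon sequence, and the level of that RNA was not analysed here. Its upstream window, printed above, was the only 1 of the 4 with CTTTGA cores.

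SFRP1, a secreted Wnt binder often silenced in breast tumours, was the other abundant antagonist. It read 10406, 9844 and 9759 in vector, 10994, 10404 and 10409 with deltaNp63alpha and 12483, 13447 and 13571 with deltaNp63beta. The deltaNp63beta libraries were above the other 6, while vector and deltaNp63alpha overlapped. SFRP1 rose by 0.40 ± 0.04 over vector (adjusted p = 3.154e-05) and by 0.31 ± 0.04 over deltaNp63alpha (adjusted p = 2.994e-04), and deltaNp63alpha differed from vector by 0.08 (95% interval -0.01 to 0.18, adjusted p = 0.2547). Per kb of exon, DKK1 was 1.20 to 1.25 times SFRP1 in the vector libraries, 0.519 to 0.606 times with deltaNp63alpha and 0.109 to 0.143 times with deltaNp63beta. On this measure the order of the antagonist RNAs was thus opposite in vector and isoform libraries.

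DKK2 and DKK3 were low. DKK2, which can act as an LRP6 ligand or antagonist, was 10.2 to 15.8 in vector, 7.02 to 20.2 with deltaNp63alpha and 8.26 to 18.6 with deltaNp63beta, with all groups overlapping. DKK3, a divergent family member, read 15.3, 11.9 and 5.23 in vector, 13.0, 13.9 and 11.9 with deltaNp63alpha and 5.16, 5.47 and 1.79 with deltaNp63beta. The isoforms did not overlap, and their difference was -1.53 ± 0.56 (adjusted p = 0.05504). It passed without the mean-variance trend (0.0351) and without vector replicate 3 (0.0459).

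**Figure D4:**
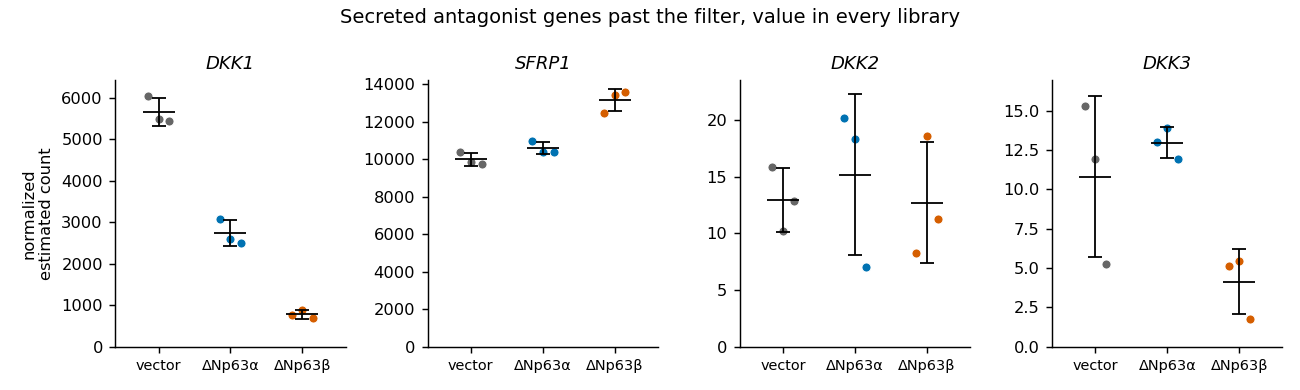
Normalized estimated counts (vertical axes, each from 0) of the 4 secreted antagonist genes tested, with a point per library, a long line at the mean and whiskers of 1 SD. DKK1 steps down from vector to deltaNp63alpha to deltaNp63beta, and SFRP1 is highest with deltaNp63beta.

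Levels of different genes were compared per kb of exon. The length was that of all annotated exons of a gene, not of the transcripts expressed, and the order of genes depends on it. In vector cells DKK1 (2562 ± 153) and SFRP1 (2101 ± 73.8) led, followed by FZD6 (804 ± 22.7), FZD2 (376 ± 26.5), FZD8 (162 ± 7.45) and WNT5A (107 ± 8.50; SD, n = 3 each). WNT10B (38.4 ± 4.11) and FZD7 (37.7 ± 1.69) came next and did not differ beyond their spread, nor did FZD3 (31.7 ± 4.75) and FZD5 (30.4 ± 3.23), or WNT9A (23.6 ± 1.90) and WNT7A (21.9 ± 2.63). With deltaNp63beta the order began with SFRP1 (2766 ± 125), FZD6 (1098 ± 74.7) and DKK1 (355 ± 47.7), and WNT10B (73.1 ± 10.7) stood above WNT5A (50.7 ± 5.70). With deltaNp63alpha these ligands were at 60.2 ± 8.91 and 51.2 ± 7.16.

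The summed Wnt ligand RNA per kb was 212 to 231 in vector, 213 to 248 with deltaNp63alpha and 192 to 219 with deltaNp63beta, so the 3 groups overlapped in total while the make-up differed. WNT5A took 46.6% to 50.0% of the sum in vector, 19.0% to 25.0% with deltaNp63alpha and 21.4% to 26.1% with deltaNp63beta. WNT10B took 15.5% to 19.3%, 23.5% to 26.9% and 32.3% to 38.3%, and was the leading ligand in all 3 libraries of each isoform. With deltaNp63alpha the lead was narrow. In replicate 2 WNT10B had 23.5%, WNT7A 22.5% and WNT5A 22.1%, and in replicate 3 WNT10B had 26.8% and WNT5A 25.0%. WNT7A went from 8.45% to 11.7% in vector to 18.4% to 22.5% and 19.3% to 21.1%. WNT9A was 10.2% to 10.97% in vector, 16.0% to 17.7% with deltaNp63alpha and 5.70% to 8.77% with deltaNp63beta. Among the frizzled genes, FZD6 took 52.3% to 55.7%, 61.0% to 63.3% and 64.6% to 69.4%, FZD2 23.9% to 27.0%, 17.0% to 17.8% and 14.8% to 17.4%, and FZD8 10.3% to 11.2%, 9.73% to 10.9% and 5.39% to 7.08%. Shares within a family are tied together, so a rise of 1 lowers the others, and these shares carry no test.

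**Figure D5:**
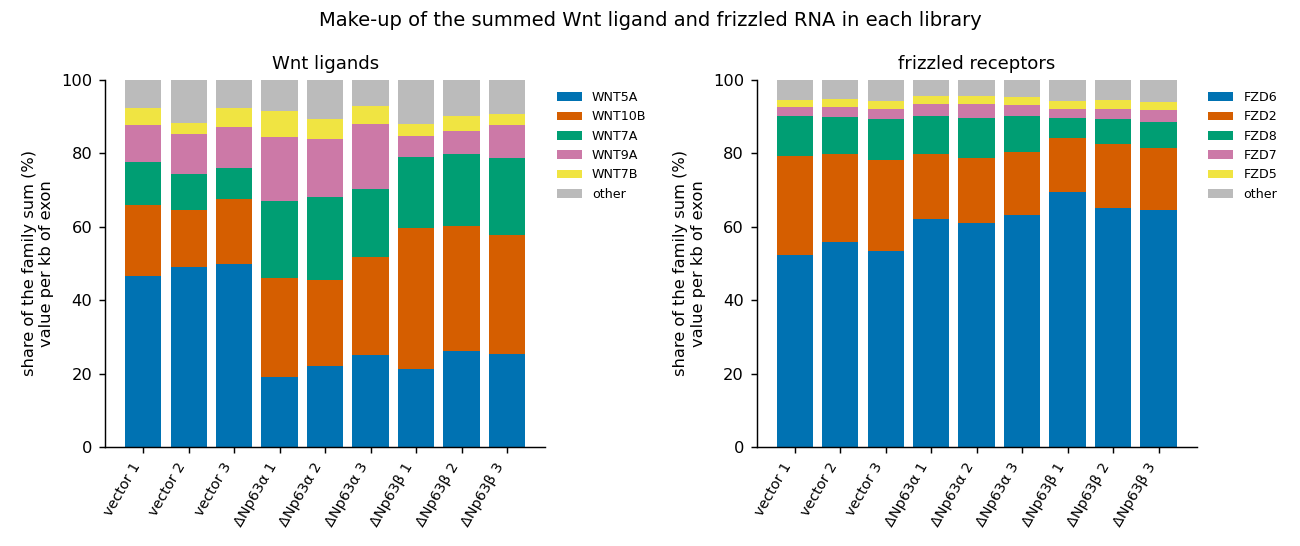
Share of the summed value per kb of exon (vertical axis, percent) taken by each Wnt ligand on the left and each frizzled receptor on the right, as 1 stacked bar per library. The WNT5A block shrinks from 46.6% or more in vector to 26.1% or less in the isoform libraries, and the FZD6 block is largest with deltaNp63beta.

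The remaining 16 members did not reach the filter, and none was above 28.4 in any library. WNT1, WNT8A and DKK4 were at 0 in all 9. WNT10A, a ligand of hair and tooth development, had that highest value in deltaNp63beta replicate 1, and read 9.80 and 9.98 in the other deltaNp63beta libraries, 6.46 to 8.29 with deltaNp63alpha and 0.74 to 8.97 in vector. WNT11, a non-canonical ligand, was 4.75 to 10.4 in vector, 0.26 to 4.76 with deltaNp63alpha and 2.36 to 6.40 with deltaNp63beta. WNT4 reached 10.6 in vector replicate 2 and 8.44 in deltaNp63alpha replicate 3. The largest values of WNT2, WNT5B, WNT6 and WNT8B were 5.72, 6.21, 6.40 and 5.88, each with at least 1 library at 0. FZD9 reached 8.84 and FZD10 8.31. WNT9B, SFRP2, SFRP4 and SFRP5 stayed at or below 3.68. These genes were not tested.

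Other Wnt pathway genes were read from 8 lists of 101 genes, some on more than 1 list, of which 81 passed the filter. In deltaNp63alpha against vector 16 were higher and 5 lower (25.9%, beside 14.5% of all genes), in deltaNp63beta against vector 26 and 14 (49.4%, beside 41.3%), and between the isoforms 13 and 13 (32.1%, beside 32.9%). Leaving out 1 library gave 10 to 16 higher and 0 to 5 lower, 24 to 26 and 9 to 14, and 9 to 14 and 10 to 13 in the same order. Other settings short of the 1.5-fold null gave 9 to 16 higher and 2 to 7 lower with deltaNp63alpha, the fewest (9 and 2) without the mean-variance trend. For deltaNp63alpha, the 16 became 10 without vector replicate 2, and the 5 became 0 without vector replicate 1, 3 without vector replicate 3 or deltaNp63alpha replicate 1, 1 without deltaNp63alpha replicate 2 and 2 without deltaNp63alpha replicate 3. The 14 lower with deltaNp63beta became 9 without deltaNp63beta replicate 1. Where limma called 0 genes of a list in a direction, the count at an unadjusted p under 0.05 was also 0, except with deltaNp63alpha for 1 modulator lower, 2 Dishevelled and destruction complex genes lower and 1 TCF/LEF factor or cofactor higher, and with deltaNp63beta for none.

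KREMEN1 and RNF43, which limit Wnt input at the cell surface, were higher with both isoforms. KREMEN1, a DKK1 receptor that removes LRP6 from the surface, was 383 ± 33.4 in vector, 736 ± 91.8 with deltaNp63alpha and 890 ± 38.6 with deltaNp63beta (SD, n = 3), up by 0.94 (adjusted p = 7.276e-05) and 1.22 (adjusted p = 2.598e-06). RNF43, the ubiquitin ligase that clears frizzled receptors and is itself a beta-catenin target, was 240 ± 36.3, 461 ± 36.9 and 460 ± 94.0, up by 0.95 (adjusted p = 0.001548) and 0.93 (adjusted p = 5.408e-04). Of 7 secreted or surface modulators tested, KREMEN1 among them, 2 were higher and 0 lower with deltaNp63alpha, 3 and 0 with deltaNp63beta, and 2 and 1 between the isoforms. The shares called were 28.6%, 42.9% and 42.9%, beside 14.5%, 41.3% and 32.9% of all genes. KREMEN2 rose with deltaNp63beta (0.82, adjusted p = 0.003133), as did GPC4, a cell-surface glypican (0.99, adjusted p = 3.804e-04), which was also 1.09 above deltaNp63alpha (adjusted p = 2.994e-04). TPBG, a membrane inhibitor of Wnt signalling, rose with deltaNp63alpha (0.39, adjusted p = 0.001849) and was 0.45 lower with deltaNp63beta than with deltaNp63alpha (-0.45, adjusted p = 2.904e-04). TRABD2B, a Wnt-cleaving protease, was called between the isoforms (1.95, adjusted p = 0.03392), but not without deltaNp63alpha replicate 1 (0.0846) or 3 (0.102) or deltaNp63beta replicate 1 (0.134, at a change of 1.34) or 2 (0.0622), nor with only the groups compared (0.0677); with a pseudocount of 5 the change was 1.31.

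R-spondin, LGR and turnover genes had 3 tested, with 1 higher and 0 lower in deltaNp63alpha, 2 and 0 in deltaNp63beta, and 1 and 0 between the isoforms. Over all genes, 14.5%, 41.3% and 32.9% were called in these comparisons, beside 33.3%, 66.7% and 33.3% of the 3. LGR4, the R-spondin receptor, was 993 ± 13.0 in vector, 1030 ± 30.9 with deltaNp63alpha and 1393 ± 79.8 with deltaNp63beta, up by 0.49 over vector (adjusted p = 6.172e-05) and 0.43 over deltaNp63alpha (adjusted p = 2.368e-04). Of 6 co-receptors tested, 2 were higher and 0 lower in each comparison with vector, and 1 and 0 between the isoforms. This was 33.3%, 33.3% and 16.7% of them, beside 14.5%, 41.3% and 32.9% of all genes. LRP4 was higher with both isoforms (1.44, adjusted p = 0.004981, and 1.10, adjusted p = 0.008052). LRP5, the co-receptor that DKK1 blocks, was 3101 ± 204, 2922 ± 251 and 3903 ± 234, and rose with deltaNp63beta by 0.33 over vector (adjusted p = 0.003435) and 0.42 over deltaNp63alpha (adjusted p = 0.001102). RYK, a kinase-like Wnt receptor, was called higher with deltaNp63alpha (0.25, adjusted p = 0.04359). Its call was lost without vector replicate 1 (0.118) or 3 (0.134), without any 1 of the deltaNp63alpha libraries (0.118, 0.118 and 0.0658), without deltaNp63beta replicate 1 (0.0505), and under 5 other settings short of the 1.5-fold null (highest 0.0827).

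Wnt secretion genes had 5 tested, with 0 called in deltaNp63alpha, 1 higher and 2 lower in deltaNp63beta, and again 1 and 2 between the isoforms. Calls over all genes tested took 14.5%, 41.3% and 32.9% in the same order, and 5 genes are too few to set a share against these. WLS, which carries Wnts to the surface, rose with deltaNp63beta by 0.39 over vector (adjusted p = 4.754e-04) and 0.37 over deltaNp63alpha (adjusted p = 9.411e-04). TMED2, a cargo receptor of early secretion, changed by -0.28 (adjusted p = 0.001162) and -0.22 (adjusted p = 0.007137). PORCN, the acyltransferase that lipidates Wnts, changed by -0.35 (adjusted p = 0.0217) and -0.39 (adjusted p = 0.01595). The PORCN call against vector was lost without vector replicate 1 (0.0501), vector replicate 3 (0.0892) or deltaNp63beta replicate 1 (0.0759), and the other without deltaNp63alpha replicate 3 (0.0683) or deltaNp63beta replicate 1 (0.0562).

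Of 18 Dishevelled and destruction complex genes, all tested, 7 were higher and 0 lower with deltaNp63alpha, 6 and 4 with deltaNp63beta, and 0 and 3 between the isoforms. Shares called were 38.9%, 55.6% and 16.7%, beside 14.5%, 41.3% and 32.9% of all genes. CTNNBIP1, which keeps beta-catenin from TCF factors, was 653 ± 38.8 in vector, 1028 ± 86.5 with deltaNp63alpha and 1036 ± 92.9 with deltaNp63beta, up by 0.65 (adjusted p = 4.473e-04) and 0.66 (adjusted p = 1.155e-04). The kinase genes CSNK1E (0.24, adjusted p = 0.006273) and GSK3B (0.24, adjusted p = 0.01081) rose with deltaNp63alpha, and both with deltaNp63beta (0.33, adjusted p = 2.196e-04, and 0.21, adjusted p = 0.006843). CSNK1A1, another casein kinase, rose with deltaNp63beta (0.20, adjusted p = 0.002281) and was called at 0.17 with deltaNp63alpha (adjusted p = 0.01768), but not without vector replicate 2 (0.0790), deltaNp63alpha replicate 1 (0.0512) or 3 (0.0583), after quantile normalization (0.0522) or without the trend (0.0897). CTNNB1, which encodes beta-catenin, rose with deltaNp63beta (0.36, adjusted p = 0.001028). It was also called with deltaNp63alpha (0.25, adjusted p = 0.02461), but not without vector replicate 1 (0.0915) or 2 (0.0579), deltaNp63alpha replicate 1 (0.0896) or 2 (0.0863), or without the trend (0.0976). Between the isoforms CTNNB1 differed by 0.11 (adjusted p = 0.228). DVL1, a Dishevelled, was lower with deltaNp63beta than with vector (-0.38, adjusted p = 8.967e-04) or deltaNp63alpha (-0.39, adjusted p = 0.001183), as was CSNK1D between the isoforms (-0.27, adjusted p = 0.001546). CSNK1D was called higher with deltaNp63alpha than with vector (0.20, adjusted p = 0.01913), but not without vector replicate 2 (0.0788), deltaNp63alpha replicate 2 (0.0750) or 3 (0.0773), or without the trend (0.0773). TNKS2, a tankyrase that marks AXIN for degradation, was called at -0.15 between the isoforms (adjusted p = 0.04461), a call that held only without vector replicate 2 or deltaNp63alpha replicate 2 when 1 library was left out (0.0505 to 0.131 otherwise), and was lost with no filter (0.0878) and without the trend (0.0882). The 7 higher with deltaNp63alpha became 3 without vector replicate 2 and 4 without deltaNp63alpha replicate 2 or replicate 3, and 3 without the trend.

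TCF/LEF factors and beta-catenin cofactors had 15 tested, with 0 higher and 4 lower in deltaNp63alpha, 1 and 3 in deltaNp63beta, and 1 and 2 between the isoforms. Calls thus took 26.7%, 26.7% and 20.0% of them, beside 14.5%, 41.3% and 32.9% of all genes. The 4 with deltaNp63alpha were the acetyltransferases CREBBP (-0.52, adjusted p = 0.02245) and EP300 (-0.50, adjusted p = 0.02404), the beta-catenin cofactor PYGO2 (-0.33, adjusted p = 0.02903) and the corepressor TLE3 (-0.32, adjusted p = 0.04568). None of the 4 calls outlasted every omission: CREBBP was lost without vector replicate 1 (0.0514) or deltaNp63alpha replicate 1 (0.0600) or 2 (0.0829), and EP300 without vector replicate 1 (0.0860) or deltaNp63alpha replicate 2 (0.0619) or 3 (0.0868). PYGO2 was lost without vector replicate 1 (0.0954) or 3 (0.113) or any 1 deltaNp63alpha library (0.0867, 0.0838 and 0.0521), and TLE3 without vector replicate 1 (0.133) or any 1 library of either isoform (highest 0.1385). The 4 became 0 without vector replicate 1 or deltaNp63alpha replicate 2 and 1 without deltaNp63alpha replicate 1 or replicate 3. Without the mean-variance trend all 4 were lost as well (0.0587 to 0.0989), as was TLE3 with no filter (0.0610) or only the groups compared (0.0671). With deltaNp63beta, CREBBP (-0.55, adjusted p = 0.006024), PYGO2 (-0.41, adjusted p = 0.003674) and the cofactor BCL9L (-0.30, adjusted p = 0.001624) were lower than vector and the corepressor TLE1 higher (0.43, adjusted p = 0.00619). Between the isoforms BCL9L (-0.27, adjusted p = 0.00379) and the repressor TCF7L1 (-0.97, adjusted p = 0.006014) were lower with deltaNp63beta. TLE5 was called higher (0.15, adjusted p = 0.03824), but not without vector replicate 3 (0.05005), any 1 deltaNp63alpha library (0.0885, 0.114 and 0.0522) or deltaNp63beta replicate 1 (0.0569) or 2 (0.144), nor under 6 other settings short of the 1.5-fold null (0.0503 to 0.103).

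Of 12 beta-catenin feedback targets tested, 2 were higher and 0 lower with deltaNp63alpha, 4 and 2 with deltaNp63beta, and 3 and 2 between the isoforms. These shares of 16.7%, 50.0% and 41.7% were near the 14.5%, 41.3% and 32.9% of all genes. MYC was 6559 ± 196 in vector, 7452 ± 310 with deltaNp63alpha and 9559 ± 481 with deltaNp63beta, up by 0.54 over vector with deltaNp63beta (adjusted p = 4.746e-06) and 0.36 over deltaNp63alpha (adjusted p = 1.899e-04). Its rise of 0.18 with deltaNp63alpha (adjusted p = 0.02458) was lost without vector replicate 2 (0.0860), vector replicate 3 (0.0854) or deltaNp63alpha replicate 1 (0.08625), and without the trend (0.1002). CCND1, the cyclin D1 gene, moved the other way: 8802 ± 73.5, 8845 ± 243 and 6530 ± 781, or -0.44 against vector (adjusted p = 3.624e-04) and -0.44 against deltaNp63alpha (adjusted p = 4.908e-04). NKD1, an inducible inhibitor of Dishevelled, was 14.7 ± 10.5, 20.6 ± 8.06 and 79.7 ± 29.1, up by 2.50 over vector (adjusted p = 0.002166). Its difference of 1.90 from deltaNp63alpha (adjusted p = 0.01406) was lost without deltaNp63alpha replicate 3 (0.0572), deltaNp63beta replicate 1 (0.05055) or deltaNp63beta replicate 2 (0.0539). BAMBI, a receptor-like regulator, was higher with deltaNp63beta than with deltaNp63alpha (0.62, adjusted p = 0.002676) or vector (0.51, adjusted p = 0.006744). The called genes were mixed in direction with deltaNp63beta, with MYC, NKD1, RNF43 and BAMBI above vector and CCND1 and PRICKLE1 below. The other 6 were not called there. Vector and deltaNp63beta means were 14.9 and 6.50 for AXIN2, 39.5 and 23.9 for SP5 and 18.1 and 14.2 for TCF7. They were 141 and 144 for LEF1, 406 and 426 for ZNRF3 and 3.68 and 16.8 for APCDD1.

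Planar cell polarity and non-canonical genes, the branch WNT5A is known for, had 23 tested, with 4 higher and 1 lower in deltaNp63alpha, 8 and 4 in deltaNp63beta, and 4 and 4 between the isoforms. Called shares were 21.7%, 52.2% and 34.8%, beside 14.5%, 41.3% and 32.9% of all genes. CELSR2, an atypical cadherin of this branch, was 859 ± 38.0 in vector, 1125 ± 38.5 with deltaNp63alpha and 1890 ± 62.8 with deltaNp63beta, up by 0.39 (adjusted p = 9.811e-04) and 1.14 (adjusted p = 5.733e-08), and by 0.75 between the isoforms (adjusted p = 3.382e-06). DAAM1, a formin that acts after Dishevelled, rose with deltaNp63alpha (0.88, adjusted p = 8.319e-04) and was lower with deltaNp63beta than with deltaNp63alpha (-0.52, adjusted p = 0.009771; -0.34 without deltaNp63beta replicate 3). Its call of 0.36 with deltaNp63beta over vector (adjusted p = 0.04319) held only without deltaNp63beta replicate 3 when 1 library was left out (0.0535 to 0.148 otherwise), and was lost under 5 other settings short of the 1.5-fold null (0.0587 to 0.102). CAMK2D, a calcium-dependent kinase, rose with deltaNp63beta by 0.65 over vector (adjusted p = 3.794e-06) and 0.61 over deltaNp63alpha (adjusted p = 1.207e-05). CELSR1 did so by 0.46 (adjusted p = 7.672e-04) and 0.49 (adjusted p = 6.418e-04). SCRIB, a polarity scaffold, was higher by 0.45 with deltaNp63beta (adjusted p = 0.001829) and by 0.38 with deltaNp63alpha (adjusted p = 0.01473), the latter lost without vector replicate 2 (0.0611) or deltaNp63alpha replicate 2 (0.0565) and without the trend (0.0681). CELSR3 was lower with deltaNp63alpha (-0.47, adjusted p = 0.01744), but not without vector replicate 1 (0.0539) or 3 (0.0506). With deltaNp63beta it was called at -0.31 (adjusted p = 0.04631), a call that held only without deltaNp63alpha replicate 1 or 3 when 1 library was left out (0.0561 to 0.117 otherwise), and was lost with no filter (0.0727) and without the trend (0.0634). PRICKLE1, a core polarity gene on this list and among the feedback targets, was 92.6 ± 21.9, 102 ± 38.5 and 36.4 ± 3.72, and -1.40 with deltaNp63beta against deltaNp63alpha (adjusted p = 0.002618) and -1.30 against vector (adjusted p = 0.002969). The 4 lower with deltaNp63beta against vector became 2 without vector replicate 2 and 1 without vector replicate 3, deltaNp63beta replicate 1 or deltaNp63beta replicate 2. Between the isoforms the 4 lower became 2 without deltaNp63alpha replicate 1, deltaNp63beta replicate 1 or deltaNp63beta replicate 2 and with no filter, and the 4 higher with deltaNp63alpha over vector became 2 without deltaNp63alpha replicate 2 or the trend.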

How the data were processed

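Poly(A) RNA from 9 MCF10A cultures was sequenced. The deposited signal values are normalized estimated counts per gene, and the submitters' processing notes name kallisto 0.46.2, GRCh38 and DESeq2 (no version), without saying which step gave the values; whether counting used strand is not given in the sources used here. Whole reads were not recovered: low values lay on steps of 0.923 to 1.11, but only 59.9% to 63.5% of values up to 20 steps were whole within 0.1 step. Sums divided by steps gave 20.3 M to 24.4 M estimated fragments per library. No interval for counting error was computed.

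limma 3.58.1 (R 4.3.3; trend and robust) was fitted on log2(value + 1) to genes at 10 or more in at least 3 libraries, 15108 in all, with all 9 libraries in 1 fit and no block. The pseudocount understates changes of low genes. Scripts were tested on simulated data. The members and lists were chosen with earlier results of these data known. Members past the filter are named, and those below it where a value reached 5. From each list, up to 4 called genes per comparison are named by adjusted p, or all where 5 or fewer were called. The feedback targets not called with deltaNp63beta against vector are named as well. Positions and exon lengths came from GENCODE 29 and upstream sequences from RefSeq. Library correlations were 0.977 to 0.981 within and 0.948 to 0.974 between groups, and no files were identical. Alternatives varied the scaling, filter, pseudocount, samples, block, moderation and threshold, and left out each library. The lists' counts under these alternatives were added after the data were seen. The level of 1 marker gene is not reported here.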

Additional observations from a re-analysis of the deposited data

How the results depend on the processing

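The 16 members below the filter were not tested, and 3 libraries a group limit every test. Under the 1.5-fold null the members called fell to 0 higher and 1 lower with deltaNp63alpha, 0 and 2 with deltaNp63beta and 0 and 2 between the isoforms, because that test asks for a larger change. Leaving out 1 library gave 1 to 5 higher and 3 to 4 lower with deltaNp63alpha, 6 to 7 and 5 to 6 with deltaNp63beta and 3 to 4 and 3 to 5 between the isoforms. Scaling, filter, pseudocount, samples in the fit and the trend kept all 6 counts within 1.5 times. Over the members' 63 changes and all alternatives, 1161 values kept their direction and side of the threshold, 50 lost a call, 8 gained one and 26 changed sign. The sign changes were all of uncalled changes, and their cause was not tested.

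Quantile normalization turned DKK2 to 0.0663 between the isoforms and 0.16 with deltaNp63beta against vector, FZD2 to -0.0001 and WNT2B to 0.009 between the isoforms. Leaving out 1 library, the ranges that crossed 0 with deltaNp63alpha against vector were -0.14 to 0.56 for DKK2, -0.0584 to 0.63 for DKK3, -0.17 to 0.0216 for FZD4 and -0.21 to 0.30 for WNT2B. With deltaNp63beta against vector they were -0.37 to 0.17 for DKK2, -0.26 to 0.25 for WNT2B and -0.97 to 1.43 for WNT3. Between the isoforms they were -0.63 to 0.067 for DKK2, -0.0226 to 0.0945 for FZD2, -0.24 to 0.003 for FZD7, -0.21 to 0.12 for WNT2B and -0.10 to 0.10 for WNT5A.

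Libraries with the same replicate number did not deviate together: correlations of their deviations from the group means were -0.12 to 0.08 for pairs with the same number and -0.14 to 0.12 for other pairs. With the replicate number as a block, members called were 4 higher and 4 lower with deltaNp63alpha, 6 and 6 with deltaNp63beta and 4 and 3 between the isoforms, with FZD3 gained for deltaNp63alpha (adjusted p = 0.0357) and WNT7B lost between the isoforms (0.0575). Among named list genes, the block ended the calls of CTNNB1 (0.0539), MYC (0.0565), CREBBP (0.0508), TLE3 (0.0798) and RYK (0.0827) with deltaNp63alpha. Between the isoforms the block ended those of TNKS2 (0.0799) and TLE5 (0.0669). Over the other Wnt pathway lists it gave 12 higher and 3 lower with deltaNp63alpha.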
